A study of Rattus norvegicus with 9 samples.

Results

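Transcription factors and nuclear receptors that shape the heart were followed by RNA sequencing in rat ventricle. The set holds the genes whose deposited symbol begins with the name of a forkhead (Fox), HMG box (Sox), GATA, Kruppel-like (Klf), T-box (Tbx), Hand, Mef2, Meis, Pbx, Tead, Nkx or Hopx factor, or of a retinoid, PPAR or other nuclear receptor. The symbols that matched numbered 110, and 4 of them (Sox17, Sox18, Tbx18 and Nr4a1) were left out by the rule, which leaves 106 of 29328 loci. The rule uses names and no measured value, but it was set with earlier results of these data known. By family they are 24 Fox, 18 cardiac factors (Hand, Mef2, Nkx, Hopx and Tead), 16 nuclear receptors, 14 Klf, 10 Sox, 9 Tbx, 4 Meis and Pbx and 3 Gata genes. The name rule also caught 8 genes that are not such factors: Gatad1, Gatad2b, Rarres1, Rarres2, Rars, Rars2, Tbxa2r and Tbxas1. Klf4 carries in the files the symbol of a mutant allele. Gata4, Gata6, Hand2, Mef2c, Mef2d, Nkx2-5, Tbx5, Tbx20, Tead1, Ppara, Rxra and Nr3c1 are not analysed here.

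Fetal libraries came from ventricles of Sprague-Dawley rats at embryonic day 18, with RNA isolated by Trizol, and are numbered as litters 1 to 3. TAC libraries were made from the left ventricle of adults that had undergone transverse aortic constriction, a narrowing of the aorta against which the ventricle has to pump harder. Sham libraries came from adult left ventricle after the same operation with no constriction, and adult RNA of both groups was isolated with the Qiagen RNeasy Fibrous Tissue Kit. Each group has 3 libraries, and all hearts were kept in RNAlater. Age, heart region and isolation method cannot be told apart in the fetal comparisons. Whether fetal hearts of a litter were pooled, how old the adults were, whether adult libraries are separate rats and how long after surgery they were taken is not stated in those labels, so p-values measure the spread between libraries, which may be technical.

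The early heart is built by a small circle of factors that bind each other's genes: GATA zinc fingers, the T-box, Hand and Nkx homeodomain factors and Mef2 proteins. TEAD factors act below the Hippo pathway, which holds growth in check, and carry the coactivators YAP and TAZ to DNA. Nuclear receptors bind small lipophilic ligands such as retinoids, fatty acids, oxysterols and steroids, many of them paired with a retinoid X receptor. After birth the heart turns from glucose to fatty acids as fuel, cardiomyocytes leave the cell cycle, and hormones acting through nuclear receptors rise.

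The 250 bases before the annotated start of 5 members are shown as examples from both ends of the set: Hand1 and Sox11 were far higher, and Klf9, Rxrg and Hopx far lower, in fetal than in adult ventricle. They were chosen after their values were seen. They are RefSeq sequences of rat build GRCr8, 5′ to 3′ on the gene's strand. Capitals mark matches on either strand to 5 motifs. They are GATAAG, known from zinc finger factors of the Gata family, the TEAD motif GGAATG, the DR1 direct repeat of nuclear receptors, the Klf and Sp motif GGGCGG, and the motif CANNTG of Hand and other basic helix-loop-helix factors.
Hand1 (chr10:42509685-42509934, minus strand): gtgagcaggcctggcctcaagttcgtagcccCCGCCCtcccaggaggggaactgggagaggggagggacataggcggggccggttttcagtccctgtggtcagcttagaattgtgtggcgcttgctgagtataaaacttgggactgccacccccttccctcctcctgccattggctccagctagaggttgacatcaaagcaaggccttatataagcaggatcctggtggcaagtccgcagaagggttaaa
Sox11 (chr6:49738795-49739044, minus strand): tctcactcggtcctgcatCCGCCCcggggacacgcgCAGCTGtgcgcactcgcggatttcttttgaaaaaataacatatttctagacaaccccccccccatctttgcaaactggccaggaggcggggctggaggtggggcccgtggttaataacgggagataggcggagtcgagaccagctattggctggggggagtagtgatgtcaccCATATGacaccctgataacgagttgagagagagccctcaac
Klf9 (chr1:230126396-230126645, plus strand): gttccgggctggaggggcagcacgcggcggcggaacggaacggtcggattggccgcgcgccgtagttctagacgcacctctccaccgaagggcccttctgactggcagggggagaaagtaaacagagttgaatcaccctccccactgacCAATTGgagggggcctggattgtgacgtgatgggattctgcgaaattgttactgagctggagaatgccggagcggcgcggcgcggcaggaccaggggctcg
Rxrg (chr13:82276237-82276486, plus strand): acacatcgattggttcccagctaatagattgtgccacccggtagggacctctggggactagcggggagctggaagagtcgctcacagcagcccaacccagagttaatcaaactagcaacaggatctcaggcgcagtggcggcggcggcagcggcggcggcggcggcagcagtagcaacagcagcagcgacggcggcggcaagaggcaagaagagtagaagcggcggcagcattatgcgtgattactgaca
Hopx (chr14:31429163-31429412, plus strand): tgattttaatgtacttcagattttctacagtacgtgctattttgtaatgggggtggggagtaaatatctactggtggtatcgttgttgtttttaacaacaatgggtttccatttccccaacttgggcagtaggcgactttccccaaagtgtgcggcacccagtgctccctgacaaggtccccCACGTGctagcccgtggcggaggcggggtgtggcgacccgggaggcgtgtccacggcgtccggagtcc
The matches did not overlap one another in these 5 windows. Hand1 and Sox11 each hold a GGGCGG match, Sox11, Klf9 and Hopx hold CANNTG matches, and none of the 5 motifs was found in the window of Rxrg. Of the 105 members of at least 200 nt, 81 had a promoter in the table by symbol. GGGCGG stood in 45.7% of member promoters, against 30.5% of the 33469 promoters in the table. The other shares were 8.6% of member promoters against 6.2% of all for GATAAG, 4.9% against 12.1% for GGAATG, 53.1% against 65.5% for CANNTG and 0.0% against 0.1% for DR1. Member promoters had a median GC content of 59.6% and 13 CpG, against 51.2% and 5 in all promoters. By direction, GGGCGG was in 5 of 10 promoters of members higher in fetal than in sham ventricle and in 5 of 16 of those lower. A match is only a description of the letters.

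Values below are FPKM (fragments per kilobase of transcript, divided by library size) rescaled between libraries, so that levels of different genes can be compared per length. Changes are differences of log2(value + 1), which understates the change of weakly expressed genes, with SE from a limma fit of all 9 libraries and p-values adjusted over all 14193 loci tested. A member was called with adjusted p under 0.05. Of the 105 members of at least 200 nt, 55 reached a value of 1 in at least 3 libraries and were tested. The other 50 stayed below it, with no value above 2.13. Implied fragments per library, estimated from the confidence bounds, ran, in units of 1e6, from 21.3 to 28.7 in fetal, from 8.46 to 15.5 in TAC and from 16.3 to 28.3 in sham libraries, so weak genes are least precise in TAC.

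Replicate 1 of each group stood apart from replicates 2 and 3. Of the cardiomyocyte markers listed, only Actc1, the cardiac actin, was found by symbol: it was at 14010, 135200 and 18860 in fetal, 27100, 20920 and 22900 in TAC and 21090, 20940 and 24110 in sham libraries, high in all 9 and far above the rest in fetal replicate 2. The atrial light chain Myl7 was 487, 606 and 299 in fetal libraries, 1051, 145 and 103 in TAC and 73.8, 79.2 and 1.20 in sham, so TAC replicate 1 stood out. In bulk tissue, fewer cells of a type and less RNA per cell cannot be told apart.

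Fetal ventricle differed from sham left ventricle in 33 of the 55 tested members, 14 of them higher and 19 lower. With libraries scaled to equal totals the split was 14 higher and 18 lower, and with upper quartile scaling 19 higher and 19 lower. Over all loci 45.5% were called, 22.5% higher and 23.1% lower. The median change was -0.07 over the tested members and 0.05 over all loci. Groups did not overlap for 44 members, against 57.9% of all loci. The nuclear receptors were called in 1 direction: 8 of 11 were lower in fetal ventricle and none higher. That depends on the setting: Nr2f2 was called higher with upper quartile scaling (0.90, limma adjusted p = 0.0304) and with replicate number as a block (adjusted p = 0.049). Both fits leave out overlapping assembled transcripts, which for Nr2f2 were higher in every sham library than in any fetal one. The Meis and Pbx genes were higher in 3 of 3 tested. Counted from reference transcripts only, Rxrg, Nr3c2, Nr1h3 and Pparg lost the call, as did all 3 Meis and Pbx genes, and Nr1i2 was not tested. Fox genes split into 2 higher and 3 lower of 6, Klf genes into 3 higher and 3 lower of 12, Sox genes into 2 higher and 1 lower of 5, and the cardiac factors into 2 higher and 1 lower of 5. Gata genes had 1 lower of 3, and neither of the 2 tested Tbx genes was called. The filter decides part of this: 5 members would not have passed without the fetal libraries (Hand1, Sox11 and Klf1, called higher, and Gata1 and Klf8). Another 5 reached 1 in no fetal library and passed through the adult ones (Sox10, Nr1i2 and Tbxas1, called lower, and Gata3 and Tbx21). Among the other 45, 11 were higher and 16 lower. Of these, Foxo6, called lower, and Rarres1 reached 1 in only 2 fetal libraries, so they also needed the adult ones. Within replicates 2 and 3 alone, 28 of 50 tested members were called (8 higher, 20 lower), among them 26 of the 33. Replicate 1 alone has 1 library a group and allows no test.

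**Figure D1:**
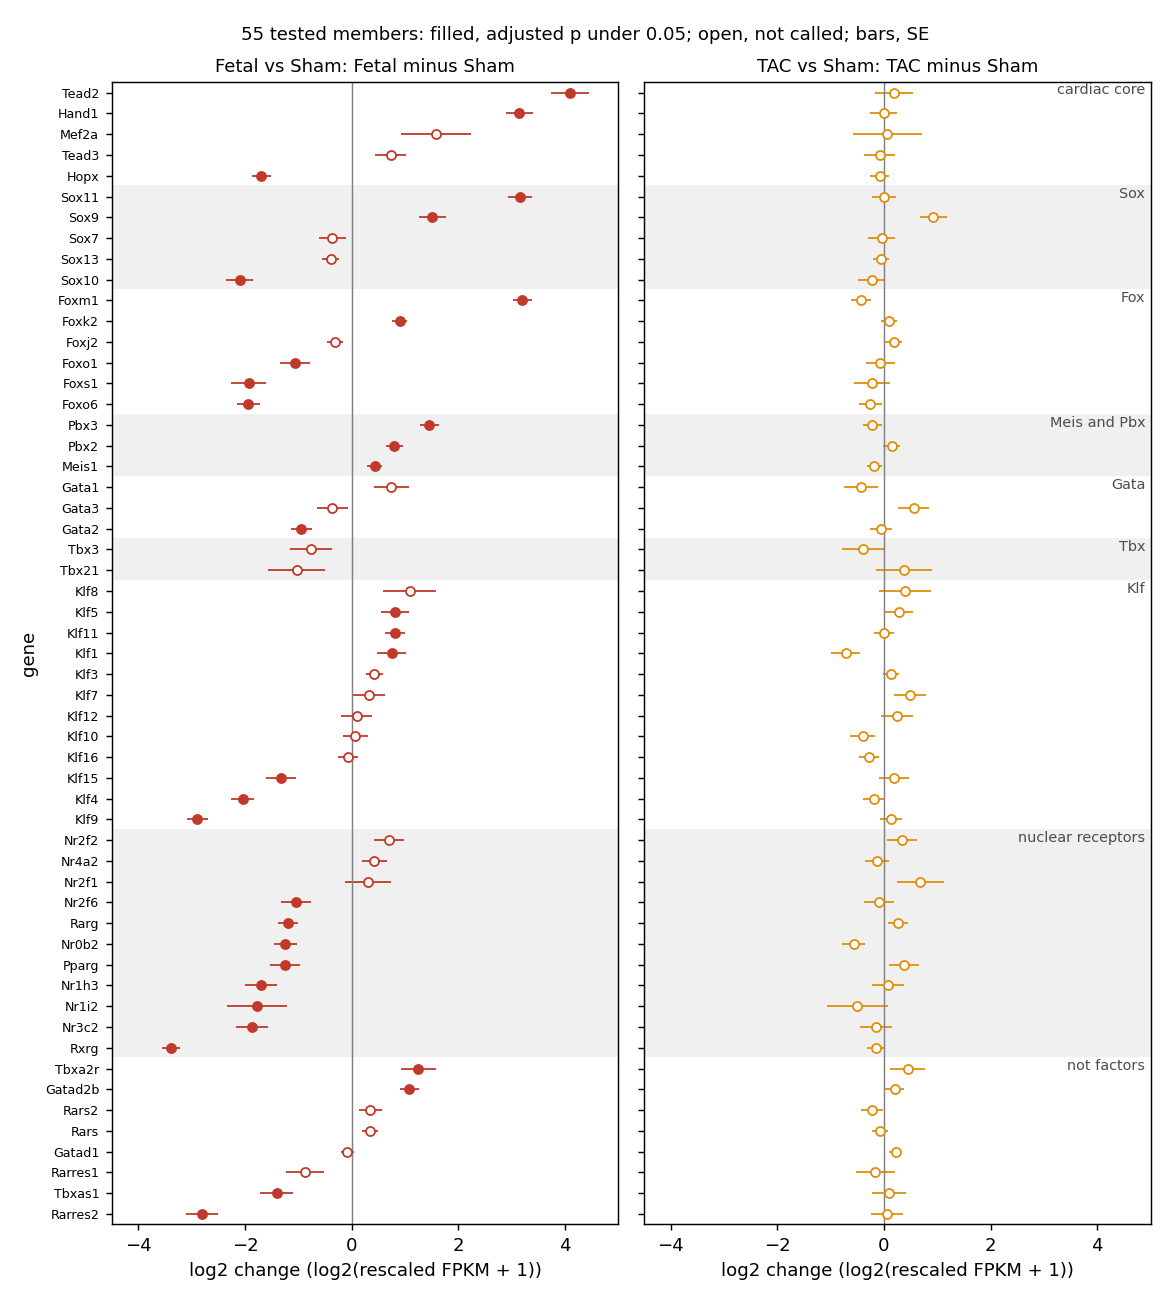
Change of each of the 55 tested members, as a difference of log2(rescaled FPKM + 1), Fetal minus Sham on the left and TAC minus Sham on the right, ordered by family. Points are limma estimates, bars are SE and filled points have adjusted p under 0.05: 33 points are filled on the left and 0 on the right.

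Among the cardiac factors, Tead2, a TEAD factor, had the largest rise of the tested members on the log2(value + 1) scale. Across the alternatives the change against sham reached 5.75 for Hand1 and 4.73 for Tead2, so the rank depends on the scale. Sox11, listed at 0 in all adult libraries, went above both. Tead2 stood at 45.7, 38.9 and 41.6 in fetal libraries, 1.46, 0.935 and 3.96 in TAC and 1.90, 1.91 and 0.892 in sham. Every fetal library was far above every adult one, and the adult groups overlapped. The change was 4.09 ± 0.35 against sham (SE, limma adjusted p = 4.23e-05) and 3.91 ± 0.35 against TAC (adjusted p = 5.5e-05). The change against sham is 17.1-fold on the log2(value + 1) scale. Tead2 lies at chr1:95693253-95709961 of build rn4. Its paralog Tead3 was at 12.6, 21.7 and 15.8 in fetal, 12.8, 6.08 and 8.79 in TAC and 7.99, 8.83 and 11.7 in sham libraries, and missed the threshold against sham (0.73 ± 0.29, adjusted p = 0.0717). It passed against sham with equal totals (0.89, limma adjusted p = 0.0291) and with upper quartile scaling (0.92, adjusted p = 0.0297). The Tead3 values leave out overlapping assembled transcripts, at 0, 34.5 and 20.2 in fetal and 0 in all adult libraries.

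Hand1, a basic helix-loop-helix factor that in the mouse embryo marks the forming left ventricle, was at 6.40, 7.84 and 11.7 in fetal libraries, 0, 0.201 and 0 in TAC and 0, 0.137 and 0.0663 in sham. The fetal libraries held 145 to 311 implied fragments of it and the adult ones about 1 or none. The change against sham was 3.14 ± 0.25 (limma adjusted p = 2.96e-05), and 3.14 ± 0.25 against TAC (adjusted p = 3.1e-05). Hand1 passed the filter only through the fetal libraries, where it is high, so this test adds little to the values. Hand1 lies at chr10:43423371-43425933 of rn4.

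Hopx, a small homeodomain protein that does not bind DNA and acts through serum response factor, went the other way. It was at 25.2, 31.9 and 34.7 in fetal libraries, 98.6, 88.3 and 98.0 in TAC and 88.0, 128 and 89.9 in sham. The fetal libraries averaged 30.6 ± 4.88, against 94.9 ± 5.79 in TAC and 102 ± 22.6 in sham (mean ± SD, n = 3 each), with no overlap between fetal and adult libraries. The change was -1.69 ± 0.18 against sham (limma adjusted p = 0.000147).

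Mef2a, a MADS box factor of muscle genes, was not called. It was at 88.7, 32.6 and 82.9 in fetal libraries, 15.4, 32.8 and 18.5 in TAC and 6.74, 44.2 and 26.0 in sham. Replicate 2 was near the same level in all groups, and the fetal and adult groups overlapped. The change against sham was 1.58 ± 0.65 (limma adjusted p = 0.0797). It passed the threshold without fetal replicate 2 (2.04, adjusted p = 0.0489) and without sham replicate 2 (2.13, adjusted p = 0.0327).

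Among Sox genes, Sox11, which acts in neural and outflow tract development in the mouse, was at 6.04, 8.81 and 9.21 in fetal libraries and was listed at 0 in all 6 adult libraries. It was called against both adult groups (limma adjusted p = 1.48e-05 against sham and 1.52e-05 against TAC), and no fold is given against a group at 0. It passed the filter only through the fetal libraries, where it is high, so this test too adds little to the values. Sox11 lies at chr6:45141373-45143469 of rn4. Sox9, a factor of cartilage and heart valve development, was at 5.95, 7.57 and 10.97 in fetal libraries, 4.66, 4.42 and 5.88 in TAC and 2.50, 1.58 and 2.40 in sham. The groups fell in that order with no overlap. The change was 1.51 ± 0.25 against sham (limma adjusted p = 0.00154), while that against TAC was 0.59 ± 0.25 and missed the threshold (adjusted p = 0.0909).

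Sox10, a factor of neural crest and glia, was at 0.0141, 0 and 0.0994 in fetal libraries, 3.75, 2.11 and 2.67 in TAC and 4.21, 3.79 and 2.53 in sham. It was near 0 in every fetal library and changed by -2.10 ± 0.25 against sham (limma adjusted p = 0.000248), having passed the filter only through the adult libraries, where it is high. Of the 6 tested neural and glial markers, 3 were lower in fetal ventricle and none higher, Sox10 itself being on that list. The summed level of the list was 6.60 to 7.91 in fetal, 12.1 to 25.4 in TAC and 14.0 to 29.0 in sham libraries, with Th at 0 in all fetal libraries. The part of these cells in the result was not tested. The endothelial factor Sox7 and Sox13 were not called against either adult group, with changes against sham of -0.36 ± 0.25 and -0.39 ± 0.16.

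Among forkhead genes, Foxm1, which drives genes of mitosis, was at 23.7, 21.6 and 22.1 in fetal libraries, 0.854, 0.664 and 1.21 in TAC and 1.55, 1.66 and 1.43 in sham. All 9 libraries ordered as fetal above sham above TAC with no overlap. The change was 3.20 ± 0.18 against sham (limma adjusted p = 6.53e-06) and 3.63 ± 0.18 against TAC (adjusted p = 4.22e-06). Foxm1 lies at chr4:165383666-165394685 of rn4. All 8 tested cell cycle genes were higher in fetal than in sham ventricle, with a median change of 4.23, and their summed level was 637 to 847 in fetal, 66.7 to 74.3 in TAC and 54.3 to 73.5 in sham libraries. The largest changes among them were those of the cyclin Ccna2 (5.18 ± 0.47) and of Cenpf, a kinetochore protein (4.61 ± 0.25).

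Foxk2, a forkhead repressor, was also higher (0.90 ± 0.15, limma adjusted p = 0.0015), at 26.5, 27.7 and 27.4 in fetal, 14.3, 16.7 and 14.4 in TAC and 16.8, 12.7 and 13.3 in sham libraries. Counted from reference transcripts only, that call was lost (0.43, adjusted p = 0.542). Overlapping assembled transcripts, left out of the Foxk2 values, were at 0, 13.3 and 28.5 in fetal, 0, 0 and 40.4 in TAC and 0 in all sham libraries. Lower were Foxo6, Foxs1 and Foxo1, the last a target of insulin signalling that changed by -1.06 ± 0.28 (adjusted p = 0.0142). The Foxo1 call was lost with libraries scaled to equal totals (limma adjusted p = 0.0567) and with reference transcripts only (adjusted p = 0.702). Foxo6 was at 0.827, 1.43 and 1.49 in fetal libraries, 5.68, 5.73 and 7.20 in TAC and 7.97, 8.62 and 6.27 in sham, a change of -1.94 ± 0.22 against sham (adjusted p = 0.000171). To pass the filter, Foxo6 needed the adult libraries, where it is high. Foxs1, known from vascular mural cells, was at 5.15, 3.72 and 3.29 in fetal libraries, 20.0, 18.2 and 9.87 in TAC and 27.1, 13.7 and 15.9 in sham, with no overlap between fetal and adult libraries (-1.93 ± 0.33, adjusted p = 0.00171). None of the 5 tested smooth muscle and mural markers was lower, and 1 was higher (Cnn1). Their summed level was 220 to 285 in fetal, 104 to 172 in TAC and 108 to 275 in sham libraries.

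The TALE homeodomain genes, whose proteins bind DNA together with Hox and other factors, were higher in the 3 tested of 4, Pbx4 being below the filter. Pbx3 was at 35.7, 32.3 and 40.2 in fetal libraries, 12.7, 8.54 and 10.9 in TAC and 10.96, 13.7 and 12.9 in sham, a change of 1.45 ± 0.18 against sham (limma adjusted p = 0.0003). Pbx2 changed by 0.80 ± 0.15 (adjusted p = 0.00309). Meis1, which in the mouse takes part in cell cycle arrest of cardiomyocytes after birth, changed by 0.43 ± 0.14 (adjusted p = 0.04). With replicate number as a block the Meis1 call was lost (adjusted p = 0.0666). Against TAC all 3 were called higher, by 1.67, 0.66 and 0.61. Counted from reference transcripts only, none of the 3 was called against sham (limma adjusted p = 0.32 for Pbx3, 0.902 for Pbx2 and 0.235 for Meis1) or against TAC.

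**Figure D2:**
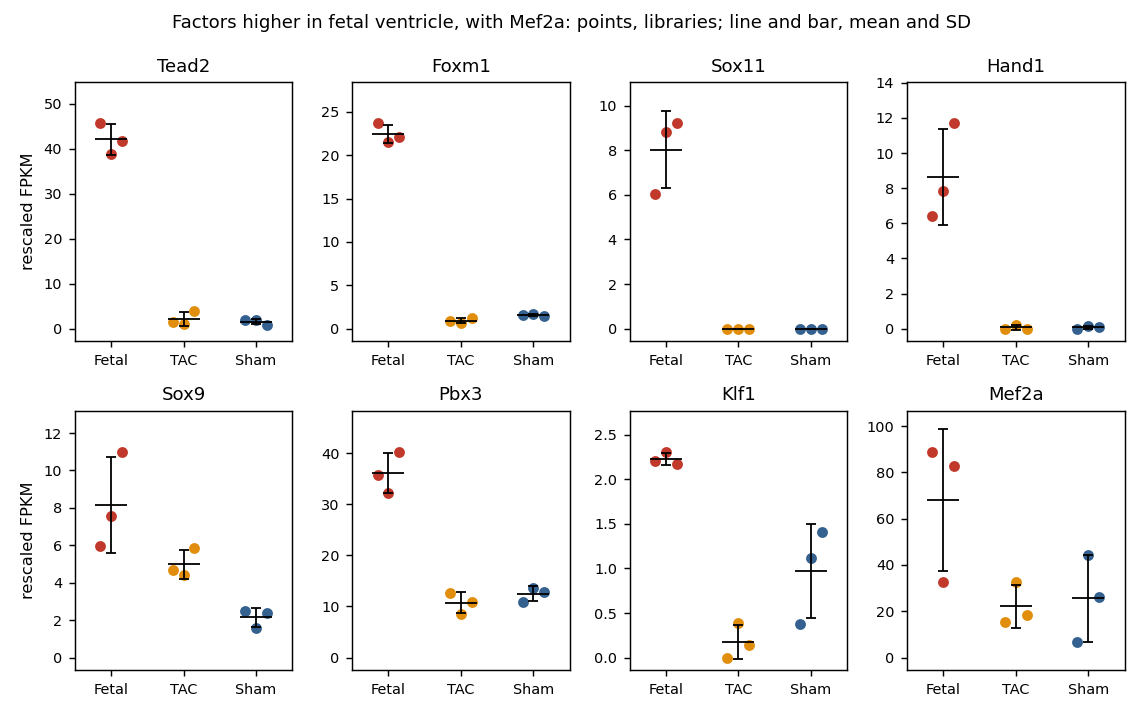
Rescaled FPKM in each library for 7 factors called higher in fetal than in sham ventricle and for Mef2a, which was not called. Points are libraries, with the mean and SD of 3 libraries a group; Tead2, Foxm1, Sox11 and Hand1 are at 3.96 or below in all 6 adult libraries, while Mef2a overlaps between groups.

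Of the red cell factors, Klf1 and Gata1 were tested, and both passed the filter only through the fetal libraries. Klf1, which switches on globin genes, was at 2.21, 2.31 and 2.17 in fetal libraries, 0, 0.387 and 0.138 in TAC and 0.380, 1.12 and 1.41 in sham. Its change was 0.75 ± 0.27 against sham (limma adjusted p = 0.0493) and 1.47 ± 0.27 against TAC (adjusted p = 0.00249). The call against sham was at the edge: it was lost with the replicate block (adjusted p = 0.0507) and under 13 of 20 alternatives in all, including the omission of each fetal library (adjusted p from 0.13 to 0.144). Gata1, its partner in erythroid cells, was at 1.49, 1.71 and 1.56 in fetal libraries, 0, 0.490 and 0 in TAC and 1.14, 0 and 0.718 in sham, with a change of 1.18 ± 0.32 against TAC (limma adjusted p = 0.0173) and 0.74 ± 0.32 against sham (adjusted p = 0.094). Of 9 tested erythroid markers, which include Klf1 and Gata1, 3 were higher in fetal ventricle than in sham: Klf1, the embryonic globin Hbe1 (6.01 ± 0.98) and Epb4.2 (1.69 ± 0.30). Gata1, Hba-a2, Alas2, Slc4a1, Nfe2 and Tal1 were not called. Their summed level was 17020 to 27160 in fetal, 4955 to 10070 in TAC and 5016 to 11220 in sham libraries, mostly globin, and the part of blood cells in the result was not tested.

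Gata2, a factor of endothelial and blood-forming cells, was lower: 3.94, 5.94 and 3.52 in fetal libraries, 8.13, 9.30 and 9.55 in TAC and 9.86, 9.04 and 9.23 in sham (-0.95 ± 0.20 against sham, limma adjusted p = 0.00497). Of 5 tested endothelial markers 3 were lower and none higher, with summed levels of 126 to 224 in fetal, 249 to 359 in TAC and 217 to 332 in sham libraries. Gata3 and Tbx21, T cell factors, had no fetal value above 0.319 and 0.0579. Gata3 was at 0.319, 0.195 and 0.202 in fetal libraries, 1.90, 1.28 and 0.955 in TAC and 0.234, 0.434 and 1.29 in sham. It was called lower against TAC (-0.92 ± 0.29, adjusted p = 0.0308) and not with the replicate block (adjusted p = 0.0505), and Tbx21 was not called. Gata3 and Tbx21 passed the filter only through the adult libraries, so the Gata3 test adds little to the values. Of 6 tested lymphocyte markers 4 were lower and none higher. Their summed level was 5.22 to 5.72 in fetal, 57.4 to 81.4 in TAC and 54.1 to 74.3 in sham libraries, with Cd3e and Cd3d at 0 in all fetal libraries, and the part of these cells was not tested. Tbx3, a factor of the conduction system, was at 2.36, 4.52 and 2.69 in fetal, 8.50, 2.14 and 3.99 in TAC and 5.93, 5.19 and 6.73 in sham libraries and was not called (adjusted p = 0.148 against sham).

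Of 12 tested Kruppel-like factors 3 were higher and 3 lower, shares close to the 22.5% and 23.1% of all loci. Klf9, which glucocorticoid and thyroid hormone induce, was at 4.14, 6.22 and 6.57 in fetal libraries, 48.7, 58.6 and 50.6 in TAC and 43.8, 58.6 and 42.6 in sham. Fetal and adult ranges were far apart, and the change was -2.90 ± 0.20 against sham (limma adjusted p = 1.39e-05) and -3.03 ± 0.20 against TAC (adjusted p = 1.14e-05). Klf9 lies at chr1:226420562-226446209 of rn4. Klf4, known from vessels and from reprogramming, was at 6.43, 7.11 and 9.17 in fetal libraries, 35.1, 34.3 and 22.0 in TAC and 37.4, 32.1 and 32.9 in sham (-2.04 ± 0.21, adjusted p = 0.000119).

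Klf15, which in the mouse heart restrains growth and promotes lipid use, was at 8.36, 17.2 and 11.2 in fetal libraries, 26.0, 45.2 and 37.9 in TAC and 26.6, 35.7 and 31.1 in sham (-1.32 ± 0.28, adjusted p = 0.00529). Those values leave out overlapping assembled transcripts, at 5.60, 30.5 and 18.55 in fetal, 0 in all TAC and 11.3, 0 and 10.45 in sham libraries. Counted from reference transcripts only, its change was 0.26 against TAC (limma adjusted p = 0.915), and the call against sham was lost (adjusted p = 0.43). Klf11 and Klf5 were higher, by 0.81 ± 0.18 (adjusted p = 0.00664) and 0.81 ± 0.26 (adjusted p = 0.0345), and the Klf5 call was lost with the replicate block (adjusted p = 0.056). Klf3, Klf7, Klf8, Klf10, Klf12 and Klf16 were not called, with changes from -0.07 (Klf16) to 1.09 (Klf8).

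The nuclear receptors were led by Rxrg, the retinoid X receptor gamma, a partner of retinoid, thyroid hormone and PPAR receptors. It was at 10.2, 14.5 and 9.05 in fetal libraries, 109, 119 and 112 in TAC and 111, 132 and 133 in sham. Each adult library was above every fetal one, and TAC and sham overlapped. The change was -3.39 ± 0.17 against sham (limma adjusted p = 4.07e-06) and -3.24 ± 0.17 against TAC (adjusted p = 4.94e-06), 0.0954-fold and 0.106-fold on the log2(value + 1) scale. Rxrg lies at chr13:83256595-83298723 of rn4.

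Nr3c2, the mineralocorticoid receptor, was at 1.53, 2.03 and 2.49 in fetal libraries, 5.96, 8.55 and 13.5 in TAC and 11.9, 10.6 and 7.59 in sham (-1.86 ± 0.30 against sham, limma adjusted p = 0.00126). Nr1h3, the oxysterol receptor LXR alpha, was at 2.27, 2.44 and 2.11 in fetal libraries, 8.17, 17.0 and 7.46 in TAC and 10.1, 11.2 and 7.77 in sham (-1.70 ± 0.30, adjusted p = 0.00202). For both receptors all fetal libraries lay below all adult ones. Nr1h3 is also a gene of macrophages, whose 7 tested markers were all lower in fetal ventricle, with summed levels of 58.7 to 68.5 in fetal, 300 to 495 in TAC and 279 to 517 in sham libraries; their part was not tested.

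Pparg, the PPAR of fat cells and macrophages, was at 1.26, 1.33 and 1.41 in fetal libraries, 3.98, 7.37 and 7.95 in TAC and 3.32, 6.26 and 4.45 in sham (-1.25 ± 0.29, limma adjusted p = 0.00757). Rarg, a retinoic acid receptor, was at 4.81, 6.99 and 5.63 in fetal libraries, 18.2, 16.6 and 18.2 in TAC and 16.7, 15.3 and 11.9 in sham (-1.20 ± 0.19, adjusted p = 0.00103). Nr2f6, an orphan receptor, had the highest fetal mean of the nuclear receptor members, with 33.3, 54.0 and 54.1 in fetal libraries, 133, 76.0 and 72.9 in TAC and 107, 105 and 79.9 in sham (-1.05 ± 0.28, adjusted p = 0.0151). These 3 receptors also showed no overlap between fetal and adult libraries.

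Nr0b2, a receptor without a DNA-binding domain that represses others, was at 12.2, 15.6 and 12.02 in fetal libraries, 19.1, 24.1 and 22.1 in TAC and 39.1, 37.7 and 23.6 in sham (-1.25 ± 0.22 against sham, limma adjusted p = 0.00192). Against TAC the change was -0.68 ± 0.22 (adjusted p = 0.0326), a call that 8 of 21 alternatives lost. Nr1i2, the xenobiotic receptor PXR, was at 0, 0.0292 and 0.0656 in fetal libraries, 0.682, 0.583 and 4.89 in TAC and 0.887, 4.56 and 3.21 in sham (-1.78 ± 0.57, adjusted p = 0.0315). Leaving out any fetal library ended that call (adjusted p from 0.076 to 0.079). Nr1i2 passed the filter only through the adult libraries, where it is high, so this test adds little to the values. Not called were the COUP factors Nr2f1 and Nr2f2 and the early response receptor Nr4a2. Nr2f2, which in the mouse sets atrial identity, was at 20.1, 15.97 and 13.7 in fetal libraries, 11.3, 13.7 and 12.5 in TAC and 12.5, 12.1 and 5.79 in sham (0.71 ± 0.28 against sham, adjusted p = 0.0698), and it passed with the replicate block (adjusted p = 0.049). The Nr2f2 values leave out overlapping assembled transcripts, at 8.567, 12.96 and 11.35 in fetal, 0, 16.98 and 12.97 in TAC and 29.99, 18.82 and 82.41 in sham libraries. The direction of Nr2f2 against sham therefore depends on leaving them out. Its 2 reference transcripts changed by -1.82 and -0.75 against sham, neither of them called (limma adjusted p = 0.204 and 0.647).

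**Figure D3:**
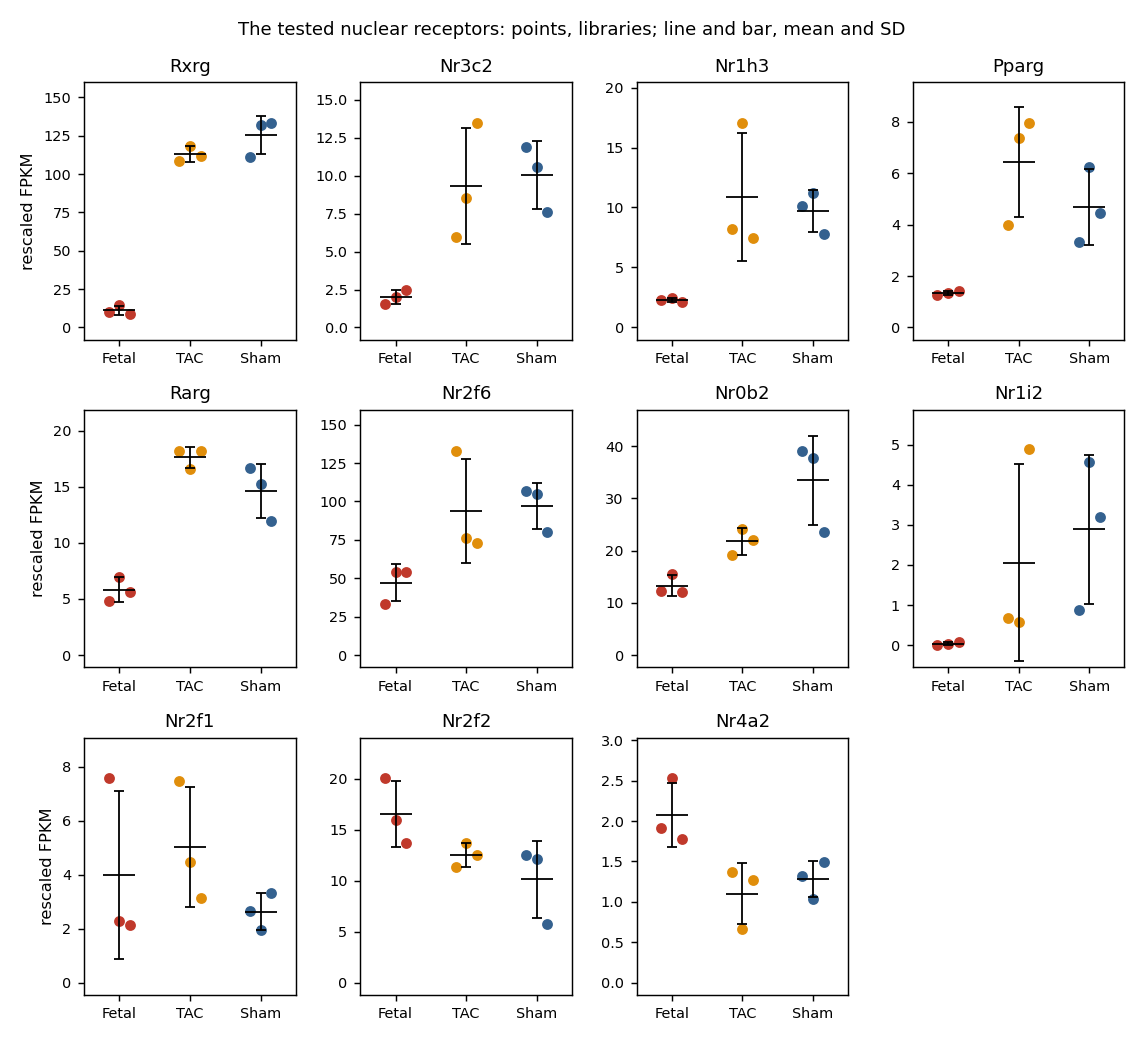
Rescaled FPKM of the 11 tested nuclear receptors in each library, with the mean and SD of 3 libraries a group. In 8 of them, Rxrg to Nr1i2, the 3 fetal libraries lie below all 3 sham libraries and the change was called.

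Of the 4 nuclear receptors outside the name rule that were tested in the list of coregulators and partners, Thrb, Vdr and Esrra were lower and Esrrb was not called. Thrb, a thyroid hormone receptor, was at 0.675, 0.567 and 0.488 in fetal libraries, 32.0, 34.9 and 27.4 in TAC and 28.6, 32.8 and 36.5 in sham (-4.41 ± 0.16, limma adjusted p = 1.08e-06). The vitamin D receptor Vdr was at 0.334, 0.102 and 0.433 in fetal libraries, 6.50, 6.35 and 5.54 in TAC and 5.95, 5.52 and 5.70 in sham (-2.39 ± 0.19, adjusted p = 2.81e-05). Esrra, an orphan receptor of mitochondrial genes, was at 18.8, 34.1 and 27.9 in fetal libraries, 69.9, 112 and 97.6 in TAC and 90.0, 115 and 139 in sham (-2.07 ± 0.27, adjusted p = 0.000392). Its relative Esrrb was at 10.4, 15.3 and 15.5 in fetal libraries, 8.93, 13.0 and 13.4 in TAC and 13.2, 13.4 and 22.3 in sham, and the groups overlapped (-0.21 ± 0.26 against sham, adjusted p = 0.553, and 0.21 ± 0.26 against TAC, adjusted p = 0.564). Of the 20 tested genes of that list 7 were lower and 3 higher, the higher ones with Hdac9, a class II deacetylase (1.60 ± 0.43), and Mkl2, a coactivator of serum response factor (1.27 ± 0.43), on top.

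Target genes of PPAR receptors, which handle fatty acids, were lower in fetal ventricle in 10 of 12, with none higher and a median change of -2.68. Their summed level was 908 to 996 in fetal, 6025 to 7197 in TAC and 6251 to 7635 in sham libraries. Lpl, the lipoprotein lipase, was at 53.0, 56.5 and 58.7 in fetal libraries, 1114, 1497 and 1137 in TAC and 1081, 1461 and 1221 in sham (-4.45 ± 0.17, limma adjusted p = 1.16e-06). Ech1, an enzyme of unsaturated fatty acid oxidation, followed (-4.00 ± 0.24, adjusted p = 7.07e-06). Cpt1a, the liver-type carnitine palmitoyltransferase, and Angptl4 were not called, at 0.22 ± 0.18 and -0.50 ± 0.28.

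Of 9 tested genes of the retinoid pathway 3 were higher and 3 lower. Aldh1a2, the main enzyme of retinoic acid synthesis in the embryo, was at 21.7, 15.2 and 13.6 in fetal libraries, 3.53, 3.66 and 2.72 in TAC and 3.26, 2.77 and 3.50 in sham (2.07 ± 0.22, limma adjusted p = 0.000132). Its relative Aldh1a1 went the other way, at 2.25, 1.92 and 0.981 in fetal libraries, 82.2, 85.9 and 102 in TAC and 82.2, 123 and 93.4 in sham (-5.22 ± 0.23, adjusted p = 2.18e-06). Tgm2, a retinoid-induced transglutaminase, was also higher (1.47 ± 0.19) and the retinal reductase Dhrs3 lower (-1.98 ± 0.20). Aldh1a2 is also an epicardial marker. Of the 6 tested epicardial markers 2 were higher, Aldh1a2 itself and Krt8 (1.94 ± 0.31), with sums of 59.7 to 71.5 in fetal, 23.5 to 48.2 in TAC and 32.9 to 36.3 in sham libraries.

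Glucocorticoid and mineralocorticoid targets were lower in 5 of 11, Klf9 among them, and higher in none. Hsd11b1, which makes active glucocorticoid within cells, was at 2.13, 1.16 and 1.59 in fetal libraries, 68.1, 61.3 and 59.1 in TAC and 64.0, 70.0 and 59.6 in sham (-4.66 ± 0.17, limma adjusted p = 9.77e-07). Among circadian genes, the repressor Bhlhe40 was at 17.8, 16.6 and 17.4 in fetal libraries, 27.0, 55.8 and 77.2 in TAC and 26.6, 79.6 and 50.5 in sham (-1.41 ± 0.44, adjusted p = 0.0301). Cry1, Cry2, Per2, Per3, Npas2 and Dbp were not called against sham. TEAD and YAP targets had 3 higher, led by Myc (2.32 ± 0.21) and Tgfb2 (1.84 ± 0.41), and 2 lower, Ankrd1 (-1.47 ± 0.27) and Amotl2 (-0.54 ± 0.18), of 8. Tead2 was 4.09 higher on the same scale, and the median of these 8 targets was 0.31. A link between Tead2 and these genes was not tested.

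Of the 8 genes caught by name only, Rarres2, which encodes the adipokine chemerin, was at 10.3, 6.97 and 6.90 in fetal libraries, 69.5, 47.7 and 78.3 in TAC and 91.1, 59.5 and 42.4 in sham (-2.80 ± 0.30, limma adjusted p = 0.000152). The fibroblast markers were lower in 6 of 8 and higher in 1 (Postn), with sums of 400 to 609 in fetal, 1558 to 1667 in TAC and 1098 to 1594 in sham libraries, and their part was not tested. Tbxas1, the thromboxane synthase, was lower (-1.41 ± 0.31), and Gatad2b, a subunit of the NuRD chromatin complex, and Tbxa2r, the thromboxane receptor, were higher (1.08 ± 0.18 and 1.25 ± 0.33). Tbxas1 passed the filter only through the adult libraries, where it is high.

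**Figure D4:**
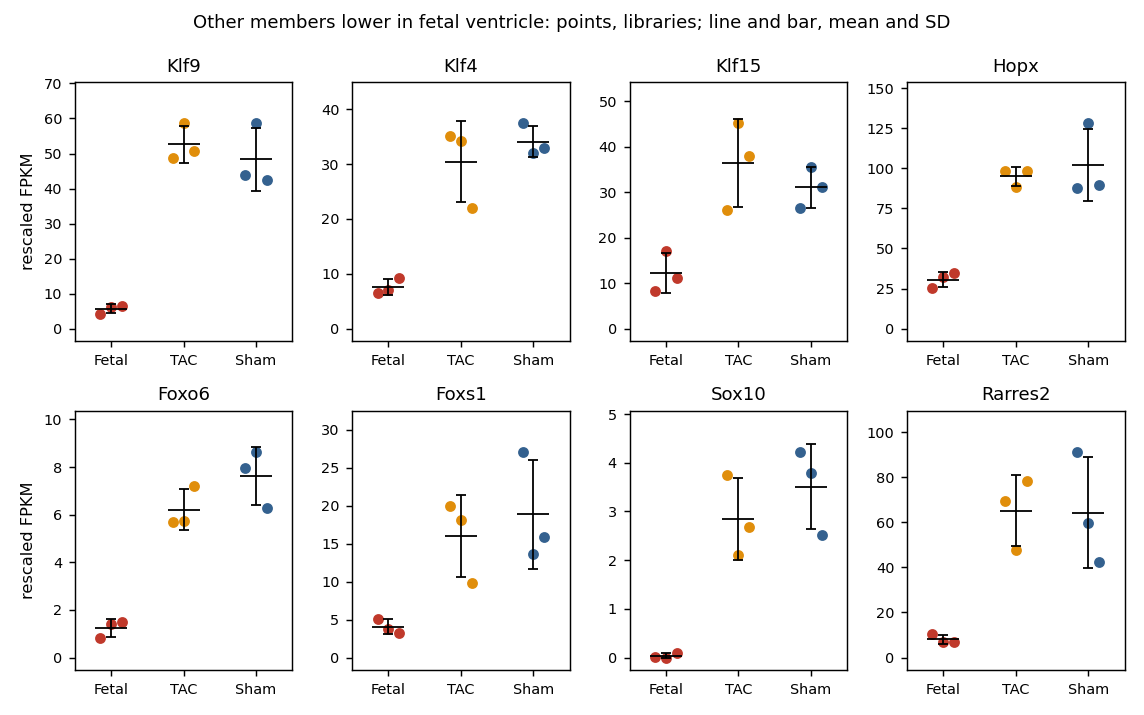
Rescaled FPKM in each library for 8 further members called lower in fetal than in sham ventricle, with the mean and SD of 3 libraries a group. In each panel the 3 fetal points lie below all 6 adult points.

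Set against TAC in place of sham, fetal ventricle differed in 32 of 55 members, 12 higher and 20 lower, beside 45.5% of all loci (22.7% higher, 22.8% lower). Both comparisons use the same fetal libraries. With libraries scaled to equal totals the split was 15 higher and 15 lower, and with upper quartile scaling 21 higher and 16 lower. The median change of all loci moved with the scaling, from 0.04 to 0.24 and 0.28, and against sham from 0.05 to 0.19 and 0.23. Groups did not overlap for 42 members, against 55.9% of loci. Nuclear receptors were lower in 7 of 11, Nr1i2 being the one called against sham and not against TAC (-1.28 ± 0.57, limma adjusted p = 0.0976). Counted from reference transcripts only, Rxrg, Nr3c2, Nr1h3, Pparg, Nr2f6 and Nr0b2 lost the call against TAC, and Rarg kept it. Nr2f6 and Nr0b2 also lost it with equal totals and with upper quartile scaling. With those scalings Nr4a2 was called higher against TAC (limma adjusted p = 0.0466 and 0.0317). The median change of the nuclear receptors was -1.25 against sham and -1.28 against TAC.

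Between TAC and sham, the comparison that asks what pressure load does to these factors, limma called none of 55 members, beside 0.0141% of all loci. With 3 libraries a group this does not show that the levels were equal. At an unadjusted p under 0.05 there were 4 members, beside 4.34% of loci, and the adjusted p of every member was 1. Groups did not overlap for 2 members, Sox9 and Foxm1, beside 8.84% of loci. Changes ran from -0.72 (Klf1) to 0.93 (Sox9).

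Sox9 had the smallest p. It was at 4.66, 4.42 and 5.88 in TAC libraries and 2.50, 1.58 and 2.40 in sham, 4.99 ± 0.78 in TAC against 2.16 ± 0.50 in sham (mean ± SD, n = 3 each), a difference of 0.93 ± 0.25 (SE, limma unadjusted p = 0.00574). The adult libraries held 12.5 to 44.1 implied fragments of it. By limma, with adjusted p = 1 for each, the next were Klf1 (-0.72 ± 0.27, unadjusted p = 0.0267), Nr0b2 (-0.57 ± 0.22, unadjusted p = 0.0289), Foxm1 (-0.42 ± 0.18, unadjusted p = 0.0488) and Gata3 (0.56 ± 0.29, unadjusted p = 0.0907). In TAC replicate 1 Klf1 and Gata1 were listed at 0, and the summed erythroid level was 4955 to 10070 in TAC and 5016 to 11220 in sham libraries. For the members that set fetal ventricle apart most, TAC minus sham was 0.19 ± 0.35 (Tead2), -0.00 ± 0.25 (Hand1), -0.15 ± 0.17 (Rxrg), 0.13 ± 0.20 (Klf9) and -0.08 ± 0.18 (Hopx). Klf15 differed by 0.19 ± 0.28. None of the 6 gene lists of receptors, targets and partners had a called gene in this comparison.

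Levels of single reference transcripts gave less. Of 142 member transcripts 60 were tested, and between fetal and sham ventricle 1 was higher and 7 lower, beside 13.0% of all transcripts. The higher one was a Foxm1 transcript, 1 of 3, at 11.02, 21.6 and 5.03 in fetal libraries, 0.419, 0.275 and 0 in TAC and listed at 0 in all sham libraries (limma adjusted p = 0.00302). The lower ones were the single transcripts of Foxo6, Foxs1, Gata2, Klf4, Nr0b2, Nr2f6 and Sox10. The count of 8 fell to 4 without fetal replicate 1 or 3 and to 5 without sham replicate 1 or 2, and it was 3 in replicates 2 and 3 alone.

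Locus values include transcripts that each library's assembly placed beside the reference ones. In 37 of the 55 tested members at least 1 library held under 50% of its value in reference transcripts. Rxrg held 100%, 64.1% and 100% there in fetal libraries, 9.38%, 10.3% and 0% in TAC and 49.9%, 0% and 0% in sham. Klf9 held 0%, 100% and 100% there in fetal libraries, 0%, 100% and 100% in TAC and 0% in all 3 sham libraries. Counted from reference transcripts only, 9 of 50 members were called against sham (1 higher, 8 lower) and 7 of 50 against TAC (1 higher, 6 lower), all of them called in the full count too. Among named members, the calls of Tead2, Rxrg, Klf9, Rarres2, Nr3c2, Nr1h3, Hopx, Sox9 and Klf1 against sham then fell away, and Rxrg, Klf9 and Sox9 turned direction without being called. Of the members called in the full count, 3 of 33 against sham (Hand1, Sox11 and Nr1i2) and 2 of 32 against TAC (Hand1 and Sox11) were not tested there. In fetal libraries, reference transcripts held 0%, 15.3% and 0% of the Hand1 value and 100%, 0% and 0% of the Sox11 value.

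Of the 50 members below the filter, 15 were listed at 0 in all 9 libraries, most of them Fox and Nkx genes of other organs, such as Foxa1, Foxn1 and Nkx2-1. In 8 the values above 0 were in fetal libraries only, led by Nkx1-2 at 0.429, 0.756 and 0.505, and in 6 in adult libraries only, among them the regulatory T cell factor Foxp3. The highest was Sox5, at 2.13, 0.672 and 0.999 in fetal libraries, 0, 0 and 0.793 in TAC and 0.0936, 0.147 and 0.141 in sham. They were not tested.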

How the data were processed

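RNA was sequenced from 9 rat heart libraries (3 fetal, 3 TAC, 3 sham) on Illumina GAIIx after TruSeq preparation, which does not mark strand, so reads of a gene and of an antisense neighbour cannot be told apart. The submitters' processing notes name TopHat 1.3.1, Cufflinks 1.0.3 and the build rn4. The authors' deposited FPKM values carry a further constant in each library, so they were rescaled by the median of ratios over 13178 loci above 0 in all libraries, to a mean total of 1e6. Gene names differ between assemblies. Loci were therefore joined through 39492 reference transcripts, which were merged when 5 or more libraries put them in the same gene. A locus value is the sum of its reference transcripts and of the others in those genes.

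Loci that measured 200 nt or more and reached 1 in 3 or more libraries were fitted on log2(value + 1), pseudocount 1, over all 9 libraries with limma 3.58.1 in R 4.3.3 (trend in eBayes, 6 residual degrees of freedom, Benjamini-Hochberg adjustment, threshold 0.05), and the fit was tested on simulated data. Depth was estimated from the deposited confidence bounds: low single-transcript values gave whole fragments within 0.1 in 83.6% to 94.7% of cases, and the median tested locus held 108 to 481 fragments. Replicate numbers come from the titles, and deviations from group means correlated in every same-numbered pair (0.155 to 0.515), so the block on replicate number was taken as a paired fit. Differently numbered pairs of replicates 2 and 3 also correlated (0.121 to 0.289), and pairs of replicate 1 with another number were at -0.413 to -0.202, so only replicate 1 was set apart.

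The members, gene lists and tests were chosen with earlier results of these data known. Named in full were members called against sham with a change of at least 1.5, the 5 of smallest p between TAC and sham, members at 0 in a whole group, and core cardiac factors. Other members are in the text by family. One result on the pathway lists is not reported here. Alternatives covered the pseudocount, filter, scaling, block, libraries fitted, trend, each library left out, replicates 2 and 3 alone, reference transcripts only and, added after seeing the data, overlapping assembled transcripts.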

Additional observations from a re-analysis of the deposited data

How the results depend on the processing

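The counts of members called held within 1.5 times of 33 (fetal against sham) and 32 (fetal against TAC) under all alternatives but the use of reference transcripts only, which gave 9 and 7. With any library left out they ran from 27 to 34 and from 27 to 34. Between TAC and sham the count stayed 0 under every alternative run. With overlapping assembled transcripts added, 30 and 31 were called. The 8 transcripts called against sham became 3 in replicates 2 and 3 alone, and 4 to 10 with a library left out.

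With the replicate block 32 (12 higher), 33 and 0 members were called, and 6 transcripts. Against sham the block ended the calls of Klf1, Klf5 and Meis1 and added Nr2f2 and Rarres1, and against TAC it ended that of Gata3 and added Rars and Rars2. It changed no other call of a member.

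Among called members named in full, reference transcripts only turned the direction of Rxrg (1.45, adjusted p = 0.62, against sham and 0.99, adjusted p = 0.744, against TAC), of Klf9 against sham (1.92, adjusted p = 0.47) and of Sox9 against sham (-0.54, adjusted p = 0.549), none of them called. Other called members that turned without being called were Gatad2b (-2.12 against sham, limma adjusted p = 0.282, and -1.24 against TAC, adjusted p = 0.538), Klf15 against TAC (0.26, adjusted p = 0.915) and Pparg against TAC (0.45, adjusted p = 0.695). The shares of the value in reference transcripts stand in the report for Rxrg and Klf9. For Sox9 they were 0%, 21.3% and 25.5% in fetal libraries and 100% in all adult libraries. Mef2a was called against sham with upper quartile scaling (1.78, adjusted p = 0.049). Gata3 and Nr0b2 against TAC were lost under 6 of 16 and 8 of 21 alternatives.

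Weak members rest on few fragments, least in TAC libraries. Members with several assembled transcripts depend on how each assembly was divided, and 3 libraries a group limit the tests between TAC and sham.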
